A study of Arabidopsis thaliana with 14 samples.

Results

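Transcript levels in the inflorescence of the Arabidopsis thaliana mutant gir1 were compared with those in its root, to describe which of the differences between these organs the mutant keeps, loses or gains. The comparison uses 7 of the 14 arrays of the series, chosen by their titles, and the other 7 are the wild-type arrays of the same organs. The groups were gir inflorescences (4 arrays), gir roots (3 arrays), Col-7 inflorescences (4 arrays) and Col-7 roots (3 arrays). The mutant is written gir in the sample titles and gir1 in the series' text, where it stands for glucose-inhibited root elongation, and the labels do not describe its allele. GIR1 could not be tied to a probe set with the tables at hand, and its transcript level is not analysed here.

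Inflorescences of both genotypes came from plants 33 days old grown in soil, and opened and opening flowers had been taken off. Roots of both genotypes came from plants 21 days old that had spent 11 days upright on agar lacking glucose, followed by 10 days on 4% glucose, according to the series' design text, while the sample protocol gives 7 days on a first plate and no later times. Tissue therefore goes together with age, medium and glucose in every comparison below, and these cannot be told apart. The control probe sets show a further split by organ. The dap control read 235.3 to 400.1 in gir inflorescences and 0.874 to 21.4 in gir roots, and the ratio of the 3′ to the 5′ GAPDH control was 1.87 to 2.34 and 0.875 to 0.984 in the same groups. The Col-7 arrays split the same way, with dap readings of 271 to 353 in inflorescences and 1.24 to 6.49 in roots, and what these controls record cannot be told apart from tissue either.

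An inflorescence bud contains sepals and petals, stamens in which pollen forms inside a nursing layer called the tapetum, and carpels with ovules, together with green stem. A root has no chloroplasts to speak of and takes up water and ions through hairs, and it produces its own set of wall enzymes, defence proteins and glycosyltransferases. Pollen passes through an early phase, in which meiosis and the tapetum dominate, and a late phase, in which the vegetative cell stores transcripts for tube growth and the generative cell divides to give sperm.

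The values are fluorescence intensities of probe sets on an Affymetrix array, and log2 below means log2(intensity + 26). On this scale the fold of a gene that is dim in one tissue is held down by the added 26. A tissue difference is inflorescence minus root within a genotype, so a positive value means higher in inflorescence. It was called where limma's adjusted p was under 0.05 and the difference was at least 2-fold, over 15800 probe sets fitted together on the 14 arrays. A tissue difference was kept where both genotypes had it in the same direction, lost where Col-7 alone had it and gained where gir alone had it. Lost and gained also required that the difference between the 2 tissue differences passed an adjusted p of 0.05. Whether replicates came from separate plants is not stated in the labels, and p-values here reflect only how far these arrays differ, which can include technical scatter. In tissue this mixed, fewer cells of a type and less RNA per cell cannot be told apart.

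In gir, 12291 of 15800 probe sets (77.8%) differed between inflorescence and root at an adjusted p under 0.05, and 5777 (36.6%) also did so by 2-fold or more. Of those, 3253 (20.6%) were higher in inflorescence and 2524 (16.0%) higher in root. That excess on the inflorescence side depended on the scaling, since with every array centred on its median 2887 were higher in inflorescence and 2879 higher in root, and the median gir tissue difference over all probe sets was -0.095 in place of 0.049. The arrays of the gir groups did not overlap for 12039 probe sets (76.2%). In Col-7, 5776 (36.6%) passed the same limits, 3222 higher in inflorescence (20.4%) and 2554 higher in root (16.2%). At 4-fold or more, 2787 passed in gir (17.6%), 1526 higher in inflorescence (9.66%) and 1261 higher in root (7.98%), against 2920 in Col-7 (18.5%), of which 1249 (7.91%) were higher in root. At 8-fold or more, 1335 passed in gir (8.45%) and 1504 in Col-7 (9.52%). There gir had 672 probe sets higher in inflorescence (4.25%) against 855 in Col-7 (5.41%), while 663 in gir (4.20%) and 649 in Col-7 (4.11%) were higher in root. The 2-fold limit falls on a crowded stretch, since 252 probe sets higher in inflorescence lay between 1 and 1.1 on the log2 scale in gir and 243 between 0.9 and 1.

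Of all probe sets tested, 4916 (31.1%) kept their tissue difference in gir, 482 (3.05%) lost it, 409 (2.59%) gained one and 6 (0.0380%) reversed it. The difference between the genotypes' tissue differences passed the test for 3310 probe sets (20.9%). Between genotypes within an organ, 4537 probe sets (28.7%) differed in inflorescence and 735 (4.65%) in root. Among the kept differences, 3685 had sizes that were not told apart between genotypes, 716 were smaller in gir and 515 were larger in gir. A further 446 were called in gir alone and 372 in Col-7 alone without the 2 differences being told apart. Single arrays of gir inflorescence and gir root correlated at 0.504 to 0.534, and those of Col-7 inflorescence and Col-7 root at 0.444 to 0.451.

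**Figure D1:**
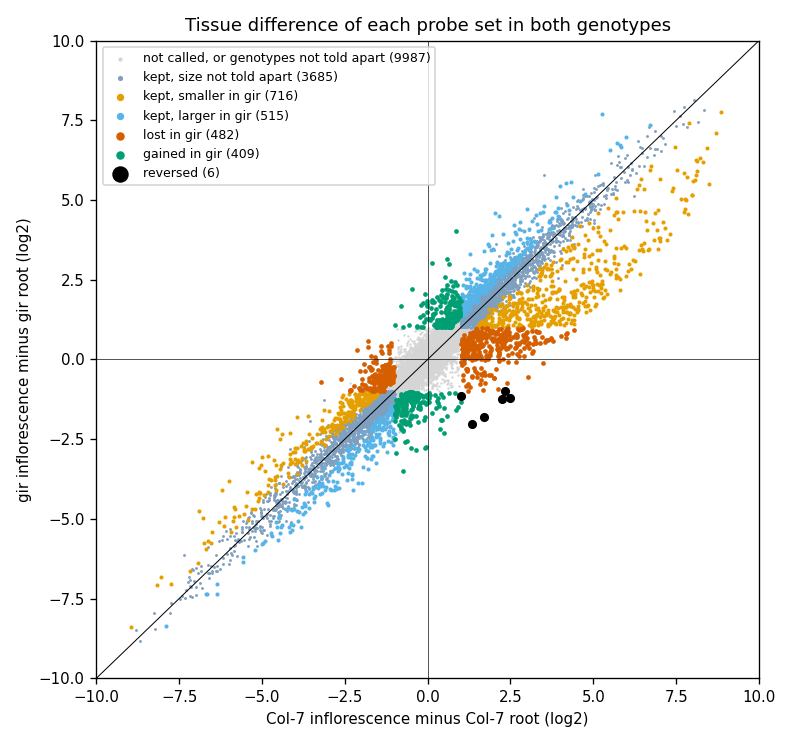
Each point is 1 of 15800 probe sets, with the gir tissue difference on the vertical axis and the Col-7 tissue difference on the horizontal axis, both on the log2 scale. Most points follow the diagonal, 471 of the 716 kept but smaller differences form a band below it on the right, and the 6 reversed probe sets lie in the lower right quadrant.

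Fates differed with the size and direction of the Col-7 difference. Of the 855 probe sets that were at least 8-fold higher in Col-7 inflorescence, 352 (41.2%) were smaller in gir and 28 (3.3%) were lost. Of the 649 that were at least 8-fold higher in Col-7 root, 117 (18.0%) were smaller in gir and 1 (0.2%) was lost. Among the 4 to 8-fold differences, 91 of 816 (11.2%) higher in inflorescence and 10 of 600 (1.7%) higher in root were lost. The 2 to 4-fold differences were lost at similar shares in both directions, 187 of 1551 (12.1%) higher in inflorescence and 165 of 1305 (12.6%) higher in root. In the 8-fold class the median size was 3.46 in gir and 4.05 in Col-7 on the log2 scale for inflorescence, and 4.09 in gir and 4.11 in Col-7 for root. A class chosen for large Col-7 values favours Col-7. Among the 672 probe sets at least 8-fold higher in gir inflorescence, chosen instead on gir values, the medians were 3.87 in gir and 3.94 in Col-7, with 17.4% smaller and 14.3% larger in gir. Among the 663 at least 8-fold higher in gir root they were 4.07 in gir and 4.05 in Col-7, with 11.2% smaller and 19.0% larger in gir. These shares are counts on the same arrays that defined the classes and carry no test of their own.

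**Figure D2:**
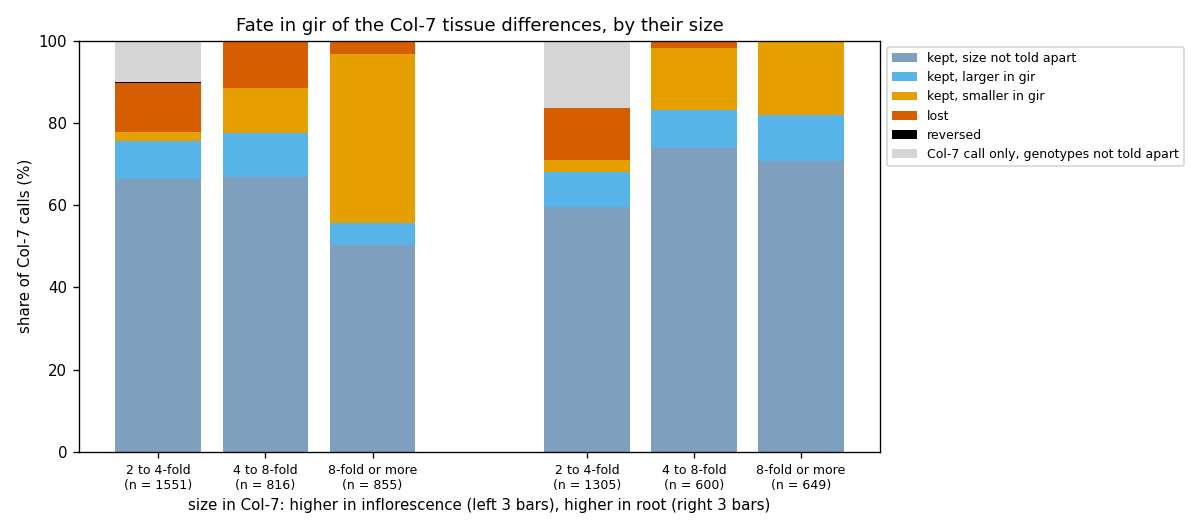
Bars give the share (%) of Col-7 tissue differences that were kept, smaller or larger, lost or reversed in gir, for the 3 size classes of each direction, with the number of probe sets under each bar. The class of 8-fold or more higher in inflorescence has the widest band of differences that were smaller in gir, 41.2% against 18.0% on the root side.

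The largest inflorescence-side differences in gir were also large in Col-7. THI2.1, a thionin with antimicrobial activity, read 11360.1, 10938, 10114 and 9142 in gir inflorescences and 15.5, 20.7 and 28.0 in gir roots, a 220-fold difference (7.78 ± 0.11 on the log2 scale, SE, limma adjusted p 2.24e-16). Every inflorescence array was bright and every root array dim, and in Col-7 the difference was 7.45. ATA27, an anther beta-glucosidase, read 6755, 5889, 5168 and 4979 in gir inflorescences and 5.08, 11.6 and 15.1 in gir roots, with tissue differences of 7.29 in gir and 7.84 in Col-7 (limma adjusted p of the difference between them 0.0848, and 0.0319 after quantile normalization). GILT, a thiol reductase, had tissue differences of 7.16 in gir and 6.86 in Col-7.

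At the top of the list stood AT1G68875, which the tables used here give no symbol. It read 8063, 7997, 6901 and 8852 in gir inflorescences and 1.34, 3.81 and 17.7 in gir roots, and its difference of 7.92 in gir was close to the 7.72 of Col-7. The other symbol-less loci among the 12 largest were AT1G66850, AT5G33370, AT2G20870, AT4G29030, AT5G62080 and AT5G22430, with gir differences between 6.63 and 7.46. For AT5G33370 the difference was smaller in gir, 7.43 against 7.88 in Col-7 (limma adjusted p 0.0177), and for AT4G29030 it was larger, 6.72 against 5.81 (adjusted p 0.0234). The call for AT5G33370 ended without Col-7 root replicate 2 (adjusted p 0.0502) and with a pseudocount of 8 (0.132), and that for AT4G29030 without Col-7 root replicate 3 (adjusted p 0.0665) and with inflorescence replicates 1 and 2 alone (0.156).

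ECS1 was higher in inflorescence in both genotypes. It read 7932, 7417, 7244 and 7635 in gir inflorescences, 2.28, 34.8 and 2.01 in gir roots, 3794, 3483, 3409 and 3068 in Col-7 inflorescences and 10.7, 309 and 34.9 in Col-7 roots. The 3 Col-7 root arrays spread widely, with replicate 2 well above the other two. The difference was 7.70 in gir and 5.25 in Col-7, and the excess of 2.45 in gir had an adjusted p of 0.0289, which became 0.0704 without gir root replicate 1, 0.0699 without gir root replicate 3 and 0.0513 without Col-7 inflorescence replicate 4. It was 0.0522 with a pseudocount of 8 and 0.152 with inflorescence replicates 1 and 2 alone. SWEET10, a sugar transporter of the plasma membrane, gave a larger difference in gir. It read 3762, 3705, 3797 and 3778 in gir inflorescences, against 2406, 2044, 2254 and 2381 in Col-7 inflorescences, and it was dim in all 6 root arrays. Its tissue difference was 6.79 in gir and 5.71 in Col-7, and the 2 differed by 1.08 ± 0.25 (adjusted p 0.00679). That call ended with a pseudocount of 8 (adjusted p 0.0524) and with inflorescence replicates 1 and 2 alone (0.0582).

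The genes chosen for organ identity were thinly covered. Of 22 loci only 4 had a probe set that named them alone, and UFO and JAG did not pass the filter on dim probe sets. SPT, a basic helix-loop-helix factor of carpel margins, read 468, 486, 549 and 568 in gir inflorescences and 221, 214 and 207 in gir roots, a difference of 1.18 in gir and 1.28 in Col-7. INO, which directs growth of the outer integument of the ovule, read 145, 183, 164 and 166 in gir inflorescences and 38.6, 12.5 and 3.94 in gir roots, a difference of 2.18 in gir and 2.19 in Col-7. The gir groups did not overlap for either gene, the gir value of SPT was 0.973 with a pseudocount of 100, and the 2 tissue differences were not told apart (adjusted p 0.665 for SPT and 0.986 for INO).

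Genes of the early anther and tapetum kept their inflorescence bias in gir. All 6 of the 25 chosen loci that could be tested were higher in inflorescence in both genotypes, beside 20.6% of all probe sets in gir. Every one of them is dim in roots, so each passed the filter through inflorescence arrays, which fixes the direction of its call, and the count and median of the 6 support nothing. SWEET8, a sugar transporter needed for microspore walls, read 2619, 2716, 2672 and 2894 in gir inflorescences and 17.5, 28.0 and 12.7 in gir roots, a difference of 5.93 in gir against 6.16 in Col-7. AMS, a basic helix-loop-helix regulator of the tapetum, read 477, 467, 422 and 504 in gir inflorescences and 16.3, 22.5 and 2.26 in gir roots, a difference of 3.67 in gir against 3.98 in Col-7. SPL, which starts sporogenous cells, read 131, 148, 131 and 124 in gir inflorescences and 2.65, 4.08 and 2.10 in gir roots, with differences of 2.46 and 2.47 in gir and Col-7.

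For these 3 genes and for the list's AT5G07230 and AT1G75920, the genotypes' tissue differences were not told apart, with adjusted p of 0.376 to 0.968. EMS1, the receptor kinase that specifies the tapetum, had a difference of 3.67 in gir against 3.23 in Col-7. Its adjusted p of 0.0436 was above 0.05 in 10 of the 14 fits that left out 1 array, with values up to 0.105. The median tissue difference of the 6 genes was 4.36 in gir and 4.54 in Col-7, beside 0.062 in gir and 0.007 in Col-7 for the 8465 genes tested.

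The late pollen genes that could be tested had smaller tissue differences in gir, and the filter favours that outcome. Of 36 chosen loci, 10 had a probe set of their own and 8 passed the filter. ANX2, AGL30, AT59, MGH3, AGL104 and AGL66 lay below the 40th percentile in every array of gir inflorescence and of both roots, so they passed through Col-7 inflorescence alone, which fixed the direction of their differences. ACT12 was as dim in the roots of both genotypes and reached that percentile in too few gir inflorescence arrays for the filter. It therefore also passed through Col-7 inflorescence alone, and ACT11 did not. All 8 were higher in Col-7 inflorescence than in Col-7 root, 5 were still called in gir with a smaller difference and 3 were lost. All 8 passed the test of the difference between tissue differences, where 20.9% of all probe sets did, and their median tissue difference was 1.28 in gir and 3.63 in Col-7. These genes were also chosen with earlier results of these data known, so these counts and medians describe the 8 genes and support nothing.

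AT59, a pectate lyase of pollen, read 126, 108, 65.9 and 58.1 in gir inflorescences, 1.68, 5.01 and 1.33 in gir roots, 1247, 1072, 1267 and 1509 in Col-7 inflorescences and 4.41, 3.13 and 11.2 in Col-7 roots. The gir inflorescence arrays lie between the roots and the Col-7 inflorescences and overlap with neither. The tissue difference was 1.97 ± 0.18 in gir against 5.33 in Col-7, and the 2 differed by -3.36 ± 0.26 (limma adjusted p 5.69e-07). ACT12, an actin of late pollen, read 175, 148, 118 and 106 in gir inflorescences and 3.92, 0.733 and 1.16 in gir roots, against 676, 657, 723 and 722 in Col-7 inflorescences. The tissue differences were 2.52 in gir and 4.48 in Col-7 (adjusted p of the difference 1.50e-06).

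MGH3, a histone H3 of the male gametes, read 111, 89.0, 36.4 and 58.7 in gir inflorescences and 4.42, 15.5 and 7.16 in gir roots, against 402, 477, 347 and 424 in Col-7 inflorescences. The pollen MADS factors AGL104 and AGL66 stood at 60.2 ± 11.6 and 72.3 ± 14.7 in gir inflorescences (SD, n = 4) and at 356 ± 25.3 and 285 ± 45.9 in Col-7 inflorescences. Their tissue differences were 1.37 for AGL104 and 1.19 for AGL66 in gir, against 3.68 and 3.12 in Col-7. In each of these genes no gir inflorescence array reached a Col-7 inflorescence array.

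The lost members were ANX2, AGL30 and ACT11. ANX2, a receptor kinase that keeps the pollen tube from bursting, read 44.5, 55.4, 26.6 and 12.6 in gir inflorescences and 7.90, 10.2 and 14.1 in gir roots, and the gir groups overlapped. In Col-7 it read 379, 339, 389 and 418 in inflorescences and 8.53, 2.72 and 3.27 in roots. The tissue difference was 0.67 ± 0.19 in gir (adjusted p 0.00495) and 3.72 in Col-7, and the 2 differed by -3.05 (adjusted p 1.95e-06). AGL30, a MADS factor of maturing pollen, had a tissue difference of 0.77 in gir against 2.18 in Col-7. ACT11, an actin of pollen and other reproductive tissue that also reads brightly in roots, had 0.22 in gir against 1.07 in Col-7.

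Where a member fell between kept and lost depended on the pseudocount. With 8 in place of 26, ANX2 reached 1.08 and AGL30 1.12 in gir and counted as kept, as did ANX2 with inflorescence replicates 1 and 2 alone (1.05). With 100, AT59 (0.868), MGH3 (0.655), AGL104 (0.571) and AGL66 (0.553) fell below the 2-fold limit. The summed intensity of the 10 late pollen genes was 1016 to 1370 in gir inflorescences, 564 to 586 in gir roots, 4464 to 4912 in Col-7 inflorescences and 483 to 568 in Col-7 roots, with no value at 0. For the 6 anther and tapetum genes the sum was 6856 to 7328 in gir inflorescences and 6664 to 8416 in Col-7 inflorescences, and those ranges overlap. The part of late pollen in the other smaller or lost differences was not tested.

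**Figure D3:**
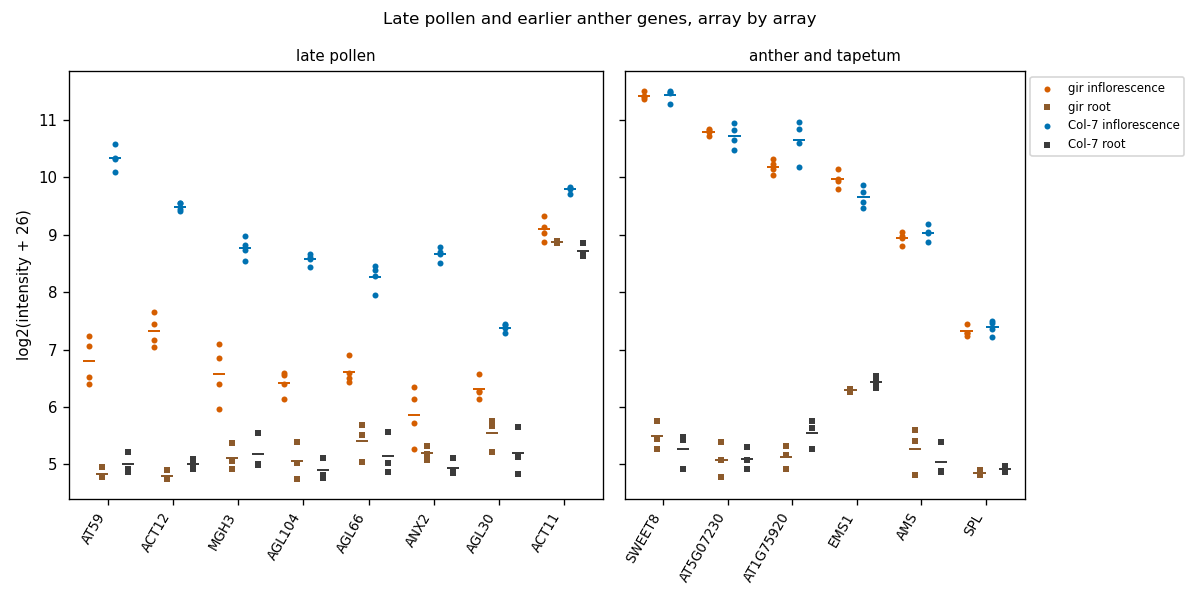
Points are single arrays on the log2(intensity + 26) scale, with a short line at the mean of each group, for the 8 late pollen genes on the left and the 6 anther and tapetum genes on the right. In the left panel the gir inflorescence points lie below the Col-7 inflorescence points for every gene, and in the right panel those 2 groups lie closer together. There gir minus Col-7 in inflorescence was -0.465 for AT1G75920 (limma adjusted p 0.0374) and 0.299 for EMS1 (0.0288).

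Other genes with a smaller inflorescence bias in gir came from many families. Over all probe sets, 471 were higher in inflorescence in both genotypes but less so in gir, with a median of 1.92 in gir and 3.90 in Col-7. Of these, 434 were lower in gir inflorescence than in Col-7 inflorescence by the same fit and 1 was higher, while 25 were higher in gir root than in Col-7 root and 6 were lower. The class itself favours those directions, because a smaller inflorescence bias means that gir minus Col-7 was lower in inflorescence than in root. AtVEX1, a SWEET sugar transporter known from the vegetative cell of pollen, read 447, 281, 310.5 and 325 in gir inflorescences and 16.1, 2.19 and 5.45 in gir roots, against 2549.5, 2598, 2676 and 2858 in Col-7 inflorescences. The difference between organs was 3.44 in gir and 6.38 in Col-7 (adjusted p of the difference 4.03e-07).

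The RALF-like peptides, small secreted signals, showed both outcomes among 9 tested members. RALFL25 read 173, 166, 191 and 98.0 in gir inflorescences, against 1290.5, 1216, 1412 and 1700.1 in Col-7 inflorescences, and its tissue difference was 2.27 in gir and 4.88 in Col-7. RALFL26 went the same way, 2.74 in gir and 5.54 in Col-7, with wide spread among the gir arrays (322, 214, 198 and 76.9). RALFL27 was instead higher in root, and more so in gir (-4.74) than in Col-7 (-4.10, adjusted p of the difference 0.000125).

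CHX19, a cation/proton exchanger, had tissue differences of 1.75 in gir and 4.30 in Col-7. LCR72, a defensin-like peptide, had 2.33 in gir and 5.16 in Col-7. The subtilase SBT4.13 had 3.10 in gir and 5.36 in Col-7, and the tetraspanin TET15 had 1.76 in gir and 4.09 in Col-7. Of 10 endoglucanases of the GH9 family, which trim cell wall glucans, GH9A4 (2.34 in gir, 4.63 in Col-7) and GH9B11 (1.41 in gir, 4.28 in Col-7) were smaller in gir, a class that holds 4.53% of all probe sets. For these 6 genes the differences between genotypes had adjusted p of 2.49e-07 to 2.26e-05, and each gene was bright in all 4 Col-7 inflorescence arrays, dimmer in all 4 gir inflorescence arrays and dim in the roots of both. With a pseudocount of 100 the gir value of GH9B11 was 0.584, under the 2-fold limit. GH9B11 lay below the 40th percentile in every array of gir inflorescence and of both roots. GH9A4 lay below it in every root array and reached it in too few gir inflorescence arrays for the filter. Both genes thus passed the filter through Col-7 inflorescence alone. That fixed the direction of their differences, so their place in that class supports nothing.

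Photosynthesis genes kept their inflorescence bias. All 8 tested nuclear photosynthesis genes were higher in inflorescence in gir and in Col-7, beside 20.6% and 20.4% of all probe sets, with a median difference of 3.23 in gir and 3.07 in Col-7. RCA, the activase of Rubisco, read 9773, 10503, 9452 and 9754 in gir inflorescences and 1089.6, 1164 and 1075 in gir roots, a difference of 3.12 in gir against 2.83 in Col-7. The Calvin cycle enzymes PRK and SBPASE had differences of 3.33 and 3.87 in gir, against 3.38 and 3.67 in Col-7. PORB, which makes a chlorophyll precursor in light, had 2.93 in gir and 2.47 in Col-7, and the photosystem I subunit PSAN had 3.53 and 3.30. For PORB the genotypes were not told apart without a replicate block (adjusted p 0.0919), but passed with the block over all arrays (0.0451) and with the block within tissue (0.0438). The block within tissue takes same-numbered arrays of a tissue as pairs, which is an assumption. Light-harvesting LHCB4.2 had 3.44 in gir and 3.38 in Col-7.

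Some photosynthesis genes were slightly larger in gir. Without a block the difference passed the test for LHCB4.1 (2.95 in gir, 2.59 in Col-7, adjusted p 0.0349), PSAE-1 (3.03 in gir, 2.58 in Col-7, adjusted p 0.027) and, among 7 light-harvesting and photosystem proteins, PSBY (3.70 in gir, 3.11 in Col-7, adjusted p 0.0161). After quantile normalization the adjusted p was 0.106 for LHCB4.1 and 0.0577 for PSAE-1. The call for LHCB4.1 ended in 10 of the 14 fits that left out 1 array (adjusted p up to 0.0873), and that for PSAE-1 without gir root replicate 1 (0.0786), Col-7 root replicate 1 (0.0662), Col-7 root replicate 3 (0.0525) or Col-7 inflorescence replicate 3 (0.051). The 8 genes summed to 53441 to 57441 in gir inflorescences, against 5618 to 6470 in gir roots, and to 40404 to 50396 in Col-7 inflorescences.

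Most transcripts encoded in the plastid were also higher in inflorescence. Of 41 tested, 31 were higher in gir inflorescence and 30 in Col-7 inflorescence, beside 20.6% of all probe sets in gir and 20.4% in Col-7. psbA, for the D1 protein of photosystem II, read 9127, 8982, 10072 and 10594 in gir inflorescences and 283, 234 and 239 in gir roots, with differences of 5.13 in gir and 4.74 in Col-7. The NDH complex subunits ndhE and ndhJ had 4.86 and 4.18 in gir, against 5.13 and 3.76 in Col-7, and for ndhJ the difference between genotypes (adjusted p 0.278) passed with the block within tissue (0.0255). rbcL, for the large Rubisco subunit, differed by 0.67 in gir (adjusted p 0.000474), below the 2-fold limit. Both ndhE and ndhJ lay below the 40th percentile in every root array, so the filter fixed their direction. Whether plastid transcripts were copied with equal efficiency in the 2 sets of preparations was not tested.

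The testable root hair genes were bright in root and dim in inflorescence. Of 11 chosen root hair genes 3 were tested, and all were higher in root in both genotypes, beside 16.0% of all probe sets in gir. All 3 lay below the 40th percentile in every inflorescence array, so they passed the filter through root arrays alone, which fixed that direction, and the count supports nothing. The expansin EXPA7, which loosens the wall of growing hairs, read 6.67, 5.98, 46.2 and 2.98 in gir inflorescences and 970.2, 1013 and 1039 in gir roots, a difference of -4.75 in gir against -4.46 in Col-7. Inflorescence replicate 3 stood above the other 3, and without it the tissue difference in gir minus that in Col-7 was -0.59 (adjusted p 0.00528). EXPA18, also of root hairs, differed by -4.38 in gir and -4.42 in Col-7, and AT1G30870 by -6.71 and -6.64. The 3 genes summed to 39.3 to 97.9 in gir inflorescences, against 5605 to 5945 in gir roots and 4865 to 4970 in Col-7 roots.

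Of the 12 largest root-side differences in gir, 5 belonged to genes with a symbol. OSM34, an osmotin-like protein, read 4.05, 42.0, 5.76 and 19.0 in gir inflorescences and 14363, 13933 and 15710.0 in gir roots, a difference of -8.47 ± 0.21 in gir and -8.81 in Col-7. PYK10, the main beta-glucosidase of root ER bodies, read 54.8, 45.5, 43.5 and 54.3 in gir inflorescences and 18254, 17299 and 20158 in gir roots, with differences of -7.94 and -8.26. The jacalin-related lectins JAL33, JAL34 and JAL22 differed by -7.62, -7.52 and -7.13 in gir, against -7.75, -7.48 and -6.98 in Col-7. None of these 5 genes had a tissue difference that was told apart between genotypes (adjusted p 0.0964 to 0.946).

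The other 7 of the 12 largest root-side differences belonged to loci without a symbol. AT4G15390 (-7.96 in gir), AT3G20370 (-7.47) and AT5G17820 (-7.14) had differences that were not told apart from those of Col-7. AT5G26260 (-8.37 in gir, -7.90 in Col-7), AT2G16005 (-7.37 and -6.35), AT5G37990 (-7.36 and -6.66) and AT4G30170 (-7.35 and -6.70) had larger differences in gir. AT5G26260, AT2G16005 and AT5G37990 were brighter in gir root than in Col-7 root, by 0.49, 1.21 and 0.62 (adjusted p 0.00237, 0.0021 and 0.0119). With a pseudocount of 8 the larger difference was not called for AT2G16005 (adjusted p 0.135), AT5G37990 (0.0987) or AT4G30170 (0.0652). The call for AT4G30170 (adjusted p 0.0319) ended when any of 7 single arrays was left out, with adjusted p up to 0.0793.

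Most of the conjugating enzymes called in gir were higher in root. Of 34 UDP-glycosyltransferases, which attach sugars to small molecules, 21 were higher in gir root and 6 in gir inflorescence, against 22 and 6 in Col-7. Over all probe sets, 16.0% were higher in root and 20.6% in inflorescence in gir. UGT72E2, which glycosylates lignin precursors, read 116, 130.0, 135 and 109 in gir inflorescences and 5768, 5546 and 5456 in gir roots, and its difference of -5.24 in gir stood beside -5.25 in Col-7. Its relative UGT72E1 had -4.96 and -4.86. Of 11 glutathione transferases 6 were higher in gir root and 2 in gir inflorescence, beside the same 16.0% and 20.6%. GSTU22 differed by -5.64 in gir and -5.39 in Col-7. GSTU25 had a larger difference in gir, -7.04 against -6.36 (adjusted p 0.0125), and read 32.6, 27.4, 16.8 and 35.0 in gir inflorescences, against 45.3, 65.4, 44.3 and 41.2 in Col-7 inflorescences. UGT72E1, GSTU22 and GSTU25 lay below the 40th percentile in every inflorescence array, so they passed the filter through root arrays alone. That fixed their direction, and the counts of both families support no lean to the root.

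Of 6 flavonoid and anthocyanin genes, 5 were higher in gir root, beside 16.0% of all probe sets, and 1, UGT78D1, was higher in gir inflorescence (2.35 in gir, 2.36 in Col-7). UGT78D1 adds rhamnose to flavonols. DFR, which opens the anthocyanin branch, read 41.7, 49.7, 29.1 and 46.5 in gir inflorescences and 2592, 2717 and 2739 in gir roots, against 17.5, 44.3, 46.0 and 25.7 in Col-7 inflorescences and 3784, 3765 and 3356 in Col-7 roots. Its difference was -5.33 in gir and -5.97 in Col-7, just short of the test for a difference between genotypes (adjusted p 0.0541, and 0.00507 with a pseudocount of 100). UF3GT, a glycosyltransferase of anthocyanins, differed by -4.26 in gir and -4.62 in Col-7. AT4G14090 was smaller in gir, -4.68 against -5.22 (adjusted p 0.0226), but not so without gir root replicate 1 (0.065), Col-7 root replicate 1 (0.051) or Col-7 root replicate 2 (0.0645). DFR, UF3GT and AT4G14090 lay below the 40th percentile in every inflorescence array, so they passed the filter through root arrays alone. That fixed their direction, and the count of 5 supports no lean to the root. The root samples had been on 4% glucose, and whether glucose set these root levels was not tested.

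Some larger root-side differences went with brighter gir roots, others with dimmer gir inflorescences. ICL, the isocitrate lyase of the glyoxylate cycle, read 13.3, 9.50, 11.2 and 19.3 in gir inflorescences and 622, 644 and 685 in gir roots, against 39.4, 16.5, 37.7 and 31.5 in Col-7 inflorescences and 254, 250.0 and 230.2 in Col-7 roots. Inflorescence minus root came to -4.11 in gir and -2.26 in Col-7, and the 2 differed by -1.85 ± 0.18 (adjusted p 5.52e-06). Gir roots were above Col-7 roots by 1.32 and gir inflorescences differed from Col-7 inflorescences by -0.53. AGL19, a MADS factor that promotes flowering, differed by -2.35 in gir and -1.48 in Col-7, with gir roots at 252, 238 and 222 and Col-7 roots at 95.5, 90.8 and 101. With a pseudocount of 8 the adjusted p of the difference between those 2 values was 0.11. AGL19 passed the filter through gir root alone, which fixed the direction of its differences.

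The wall enzyme XTH19 and the tubulin TUB1 were dimmer in gir inflorescence. XTH19, a xyloglucan endotransglucosylase, read 62.3, 88.5, 35.2 and 31.6 in gir inflorescences, against 135, 119, 153 and 104 in Col-7 inflorescences, and its tissue difference was -5.27 in gir and -3.84 in Col-7 (adjusted p of the difference 0.00176). Its relative XTH20 had -3.42 in gir and -3.43 in Col-7. TUB1 read 460.4, 264, 259 and 275 in gir inflorescences, against 678, 567, 578 and 585 in Col-7 inflorescences, with tissue differences of -2.55 in gir and -1.19 in Col-7 (adjusted p 0.000364). CYP71B22, a P450 that was higher in inflorescence, likewise had a larger difference in gir, 5.44 against 3.98 (adjusted p 0.00187), and read 1045, 1587, 1902 and 1472 in gir inflorescences, against 574, 868, 819.5 and 777 in Col-7 inflorescences.

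Other root-side differences shrank in gir without being lost. ATC, a relative of TFL1 that delays flowering, read 1.74, 3.23, 4.60 and 2.15 in gir inflorescences and 984, 842 and 1098 in gir roots, against 2577, 2213 and 2068 in Col-7 roots. Its tissue difference was -5.11 in gir and -6.29 in Col-7 (adjusted p of the difference 1.66e-05), with gir minus Col-7 at -0.03 in inflorescence (adjusted p 0.827) and -1.21 in root (adjusted p 2.27e-05). AGL21, a MADS factor of lateral roots, had -3.58 in gir and -3.85 in Col-7, which were not told apart (adjusted p 0.105). They were with a pseudocount of 100 (0.0467) and without Col-7 inflorescence replicate 1 (0.0412), which stood above the other 3. The defensin PDF2.1 read 251, 213, 236 and 239.9 in gir inflorescences and 4360.0, 4298 and 4721 in gir roots, against 47.9, 58.2, 58.9 and 79.8 in Col-7 inflorescences and 7003, 6365 and 5865 in Col-7 roots. Its tissue difference was -4.11 in gir and -6.21 in Col-7 (adjusted p of the difference 3.73e-07), while LCR66, a defensin-like gene higher in inflorescence, had 5.48 in gir and 5.21 in Col-7 (adjusted p 0.33).

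Expansins, which loosen cell walls as cells grow, held all outcomes but reversal and gain. Of 16 tested, 10 were higher in gir root and 1, EXPA24, higher in gir inflorescence, against 10 and 3 in Col-7. The shares over all probe sets were 16.0% and 20.6% in gir. EXPA7 and EXPA18 lay below the 40th percentile in every inflorescence array, so they passed the filter through root arrays alone. That fixed their direction, and the counts support no lean. EXPA4 and EXPA15 were higher in root, with differences of -1.89 and -1.64 in gir, against -2.82 and -2.42 in Col-7 (adjusted p of the differences 1.62e-05 and 0.00271). EXPA24 had 1.55 in gir and 3.64 in Col-7, and 0.661 in gir with a pseudocount of 100. EXPA8 was lost: it read 979, 635, 558 and 585 in gir inflorescences and 722, 674 and 737 in gir roots, which overlap, against 3097, 2599, 2269.6 and 2702 in Col-7 inflorescences and 467, 460.5 and 484 in Col-7 roots. Its tissue difference was -0.08 ± 0.15 in gir and 2.43 in Col-7 (adjusted p of the difference 1.68e-06). EXPB5 was lost too (0.89 in gir, 3.27 in Col-7), though its gir difference was 1.22 without gir root replicate 1 and 1.41 with a pseudocount of 8. EXPA24 and EXPB5 passed the filter through Col-7 inflorescence alone, which fixed the direction of their differences.

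SWEET and related sugar transporters kept most of their tissue differences. Of 14 tested, 9 were higher in gir inflorescence and 2 in gir root, against 11 and 2 in Col-7, where all probe sets gave 20.6% and 16.0% in gir. SWEET1, SWEET4, SWEET8 and SWEET10 lay below the 40th percentile in every root array, so they passed the filter through inflorescence arrays alone. That fixed their direction, and the counts support no lean to the inflorescence. SWEET1 and SWEET4 kept their inflorescence bias (4.22 and 4.39 in gir, 4.33 and 4.82 in Col-7), and SWEET2 and SWEET16, both of the vacuole membrane, their root bias (-1.38 and -2.18 in gir, -1.39 and -2.14 in Col-7). SWEET13 and SWEET14, which act together in anthers, were lost. SWEET13 read 209, 179, 165 and 147 in gir inflorescences and 234, 232 and 278 in gir roots, against 1482, 1200.1, 813 and 1041 in Col-7 inflorescences and 368, 322 and 302 in Col-7 roots. SWEET14 read 323, 230.2, 236 and 156 in gir inflorescences and 266, 219.6 and 231 in gir roots, against 1729.5, 1222, 949 and 1094 in Col-7 inflorescences.

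In SWEET13 every gir inflorescence array lay below every gir root array, by less than the 2-fold limit, and in SWEET14 the gir groups overlapped. The tissue differences were -0.45 for SWEET13 and -0.05 for SWEET14 in gir, against 1.67 and 2.14 in Col-7 (adjusted p of the differences 1.14e-05 and 8.07e-05). Gir minus Col-7 was -2.51 and -2.28 in inflorescence and -0.38 and -0.09 in root, where neither passed the test (adjusted p 0.26 and 0.875).

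Over all probe sets, 306 lost an inflorescence bias and 176 a root bias. For 277 of the 306 (90.52%) the genotypes lay further apart in inflorescence than in root. That share was 64.26% over all probe sets called higher in inflorescence in either genotype. Gir minus Col-7 also spread more widely over all 15800 probe sets in inflorescence (SD 0.541) than in root (SD 0.244). By the same fit 292 of the 306 were lower in gir inflorescence, with a median of -1.40 in inflorescence and 0.06 in root for gir minus Col-7. Of the 176 lost root biases, 134 were higher in gir inflorescence and 54 lower in gir root, with medians of 0.47 and -0.30. The classes themselves favour these directions. A lost inflorescence bias means that gir minus Col-7 was lower in inflorescence than in root, and a lost root bias the opposite. In 204 of the 482 lost probe sets the gir difference was under 0.5 on the log2 scale, and in 116 it did not pass the test at all.

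The largest losses on the inflorescence side were ANX2 and 7 loci without a symbol. AT5G47000 read 413, 325, 295 and 262 in gir inflorescences and 269, 372 and 429 in gir roots, against 2722, 2519, 2758 and 3098 in Col-7 inflorescences and 225, 227 and 218 in Col-7 roots. Its tissue difference was -0.12 in gir and 3.48 in Col-7 (adjusted p of the difference 1.09e-07). AT4G35670, AT1G01310, AT4G25780 and AT5G46770 had gir differences of 0.67, 0.80, 0.72 and 0.58, against 4.17, 4.19, 4.04 and 3.78 in Col-7. AT1G01310 passed the 2-fold limit in gir without inflorescence replicate 4 (1.01), and with a pseudocount of 8 so did AT1G01310 (1.56), AT4G35670 (1.26) and AT5G46770 (1.04). AT3G05150 and AT1G13970 had fallen to the root side in gir, -0.73 and -0.93, against 2.40 and 2.14 in Col-7. AT1G13970 passed 2-fold in that direction after median centring (-1.074) and quantile normalization (-1.025), as it did without gir inflorescence replicate 1 (-1.01) and, barely, with a pseudocount of 8. AT4G35670, AT1G01310, AT5G46770 and AT3G05150 passed the filter through Col-7 inflorescence alone, which fixed the direction of the differences between genotypes.

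Named families added further losses. Of 9 U-box ubiquitin ligases, which mark proteins for breakdown, 3 were lost, beside 3.05% of all probe sets. PUB15 read 37.6, 10.3, 34.4 and 17.3 in gir inflorescences and 6.78, 10.8 and 18.4 in gir roots, against 162, 176, 187 and 164 in Col-7 inflorescences, with differences of 0.39 in gir and 2.67 in Col-7. PUB15 lay below the 40th percentile in every array of gir inflorescence and of both roots. It passed the filter through Col-7 inflorescence alone, which fixed the direction of its differences, so the count of 3 supports nothing. PUB19 had -0.31 in gir and 1.19 in Col-7, and it too passed the filter through Col-7 inflorescence alone, which fixed the direction of its differences. PUB23, which damps immune signalling, lost a root bias: it read 203, 288, 311 and 263 in gir inflorescences and 413, 485 and 358 in gir roots, against 48.4, 76.1, 109 and 88.2 in Col-7 inflorescences and 410.1, 388 and 361 in Col-7 roots, with differences of -0.61 in gir and -1.99 in Col-7.

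CSLC12, of the family that makes the xyloglucan backbone, read 104, 111, 119 and 127 in gir inflorescences and 103, 104 and 111 in gir roots, against 385, 422, 516 and 465 in Col-7 inflorescences. The difference was 0.10 in gir and 2.12 in Col-7 (adjusted p of the difference 9.00e-07). CSLC12 passed the filter through Col-7 inflorescence alone, which fixed the direction of its differences. TUA1, an alpha-tubulin abundant in pollen, had 0.44 in gir and 1.39 in Col-7. IQD19, of a family that binds calmodulin, had 0.06 and 1.25, and there gir roots were above Col-7 roots by 0.52 (adjusted p 0.0098) while gir inflorescences were below Col-7 inflorescences (-0.67, adjusted p 4.03e-05).

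The largest losses on the root side were LCR68 and 7 loci without a symbol. LCR68, a defensin-like gene, read 7311, 6167, 6622 and 6776 in gir inflorescences and 5505, 4612 and 5007 in gir roots, against 3162, 3435, 3141 and 3005 in Col-7 inflorescences and 7559.5, 7126 and 7509 in Col-7 roots. It changed sign, 0.41 in gir and -1.21 in Col-7 (adjusted p of the difference 3.63e-07), below the 2-fold limit in gir. AT4G18340 and AT1G26450 also changed sign, 0.31 and 0.40 in gir, against -2.13 and -1.80 in Col-7. AT3G19430 differed between genotypes in root: it read 52.6, 42.1 and 31.9 in gir roots, against 269, 286 and 378 in Col-7 roots, with tissue differences of -0.71 in gir (-1.08 with a pseudocount of 8) and -3.22 in Col-7.

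AT5G39670, AT2G38600, AT1G72230 and AT5G35735 had gir differences of 0.10, 0.41, -0.36 and 0.09, against -1.72, -1.41, -2.05 and -1.59 in Col-7. AT3G19430 and AT2G38600 passed the filter through Col-7 root alone, which fixed the direction of the differences between genotypes. The tetraspanin TET5 lost a root bias as well (-0.77 in gir, -1.46 in Col-7), with gir inflorescences at 152, 178, 195 and 204 and Col-7 inflorescences at 90.1, 106, 106 and 116.

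**Figure D4:**
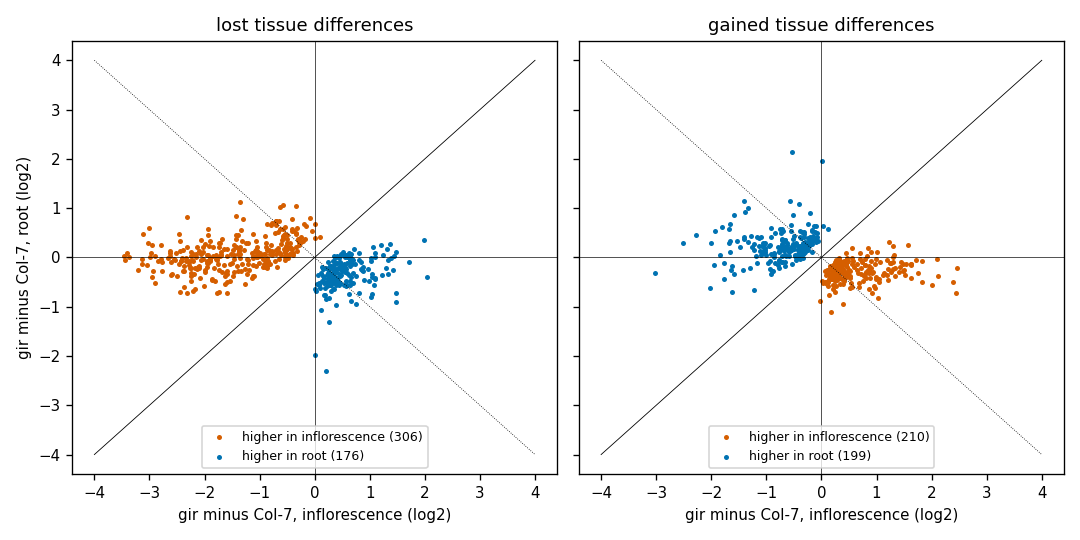
Each point is a lost (left, 482) or gained (right, 409) tissue difference, with gir minus Col-7 in inflorescence on the horizontal axis and gir minus Col-7 in root on the vertical axis, both log2. Points spread further along the horizontal axis than along the vertical one, most widely for the 306 lost inflorescence biases, whose medians are -1.40 in inflorescence and 0.06 in root. Over all probe sets gir minus Col-7 also spread further in inflorescence (SD 0.541) than in root (SD 0.244).

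Gained differences were about as many in each direction, 210 higher in inflorescence and 199 higher in root. Of the 210, 160 were higher in gir inflorescence than in Col-7 inflorescence and 33 lower in gir root. Of the 199, 170 were lower in gir inflorescence and 32 higher in gir root. The definition of a gain favours these directions, as that of a loss does. In 144 of the 409 the Col-7 difference was under 0.5 on the log2 scale, and in 78 it did not pass the test.

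Calmodulin-like proteins, which sense calcium, supplied 3 of the gains among 7 tested members, where 2.59% of all probe sets were gained. CML30 read 248, 288, 305 and 342 in gir inflorescences and 85.0, 73.3 and 59.1 in gir roots, against 135, 186, 176 and 180.2 in Col-7 inflorescences and 68.6, 118 and 115 in Col-7 roots, a difference of 1.71 in gir and 0.64 in Col-7. CML41 read 231, 219, 228 and 233 in gir inflorescences and 56.3, 106 and 84.7 in gir roots, against 64.2, 94.2, 148 and 148 in Col-7 inflorescences and 105, 90.8 and 123 in Col-7 roots, a difference of 1.25 in gir and 0.03 in Col-7. CML42 went to the root side, -1.46 in gir and -0.27 in Col-7. The differences between genotypes had adjusted p of 0.00307, 0.00783 and 3.55e-05. With a pseudocount of 100 the gir difference of CML41 was 0.856, below the 2-fold limit. CML41 passed the filter through gir inflorescence alone. That fixed the direction of its differences, so the count of 3 supports nothing.

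The 8 largest gains on the inflorescence side lacked symbols. AT3G62960 read 765, 662, 589 and 653 in gir inflorescences and 21.4, 21.1 and 8.19 in gir roots, against 124, 95.7, 74.9 and 114 in Col-7 inflorescences and 42.4, 37.8 and 53.5 in Col-7 roots. Its difference was 4.03 in gir and 0.85 in Col-7 (adjusted p of the difference 2.11e-07). AT1G22690, AT1G10340, AT1G62480, AT4G26830 and AT5G08350 had gir differences of 3.15, 1.70, 1.76, 1.74 and 1.68, against 0.60, -0.21, -0.13, -0.03 and -0.03 in Col-7. AT1G35210 had 1.69 in gir and -0.80 in Col-7, and AT3G62930 had 1.07 and -0.98. AT3G62930 was below the 2-fold limit in gir without gir inflorescence replicate 2 (0.987), after median centring (0.929), after quantile normalization (0.939) and with a pseudocount of 100 (0.861). AT3G62960 and AT1G22690 passed the filter through gir inflorescence alone, which fixed the direction of the differences between genotypes.

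On the root side UPB1 and CYP718 had symbols among the 8 largest gains. UPB1, a basic helix-loop-helix factor that sets where root cells stop dividing and start to differentiate, read 137, 111, 152 and 92.4 in gir inflorescences and 531, 508 and 529 in gir roots, against 393, 245, 364 and 480.1 in Col-7 inflorescences and 249.5, 254 and 288 in Col-7 roots. Its difference was -1.90 in gir and 0.42 in Col-7 (adjusted p of the difference 1.03e-05). The genotypes differed in both organs, by -1.39 in inflorescence and 0.92 in root. CYP718, a P450, was dim in inflorescences of both genotypes and read 119, 171 and 145 in gir roots, against 6.77, 30.9 and 18.9 in Col-7 roots, a difference of -2.56 in gir and -0.62 in Col-7. CYP718 passed the filter through gir root alone, which fixed the direction of its differences.

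AT5G05250, AT2G41970, AT5G02580, AT3G56360, AT4G26770 and AT5G65530 had gir differences of -2.17, -2.84, -1.58, -1.34, -1.47 and -1.67, against 0.38, -0.36, 0.87, 1.00, 0.34 and 0.13 in Col-7. With a pseudocount of 100 the gir value of AT4G26770 was -0.795. ATG8H, one of the proteins that coat autophagosomes, read 456, 402, 460.3 and 505 in gir inflorescences and 1087, 1067 and 1114 in gir roots, against 931, 779, 1113 and 1259.8 in Col-7 inflorescences and 851, 748 and 842 in Col-7 roots, with differences of -1.22 in gir and 0.30 in Col-7. NET2D, of an actin-binding family, had -1.65 in gir and -0.69 in Col-7.

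Only 6 probe sets were reversed, each higher in inflorescence in Col-7 and higher in root in gir, and 2 of them name 1 gene. SP1L4, a SPIRAL1-like protein of the kind that binds microtubules, read 139, 97.4, 115 and 108 in gir inflorescences and 451, 451 and 504 in gir roots, against 969.6, 1036, 1069 and 1216 in Col-7 inflorescences and 325, 272 and 341 in Col-7 roots. No 2 of the 4 groups overlapped. The tissue difference was -1.82 ± 0.11 in gir and 1.70 in Col-7, and the 2 differed by -3.52 ± 0.16 (adjusted p 9.53e-09). HIS1-3, a linker histone induced by drought, read 115, 218, 306 and 262 in gir inflorescences and 611, 594 and 441 in gir roots, against 1236, 1282, 1820.1 and 1969.6 in Col-7 inflorescences and 265, 286 and 377 in Col-7 roots. Its difference was -1.25 in gir and 2.24 in Col-7 (adjusted p of the difference 7.17e-06), and without gir inflorescence replicate 1 the gir value was -0.99, just short of the 2-fold limit.

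**Figure D5:**
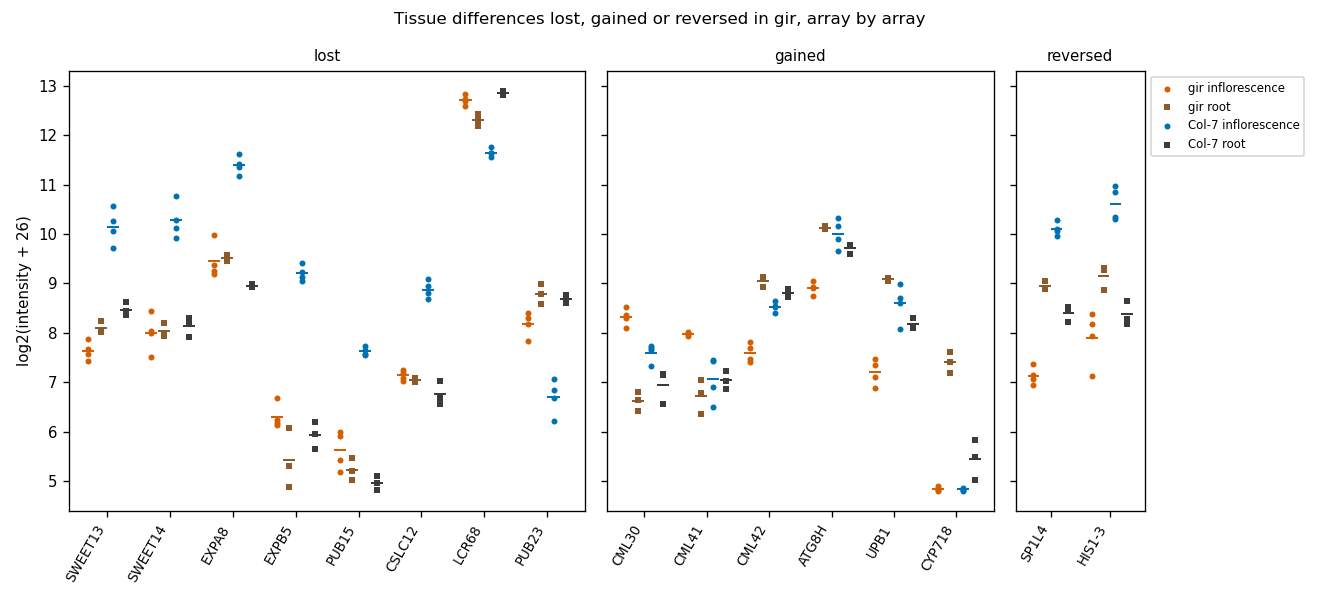
Points are single arrays on the log2(intensity + 26) scale, with a line at the mean of each group, for 8 lost, 6 gained and 2 reversed tissue differences. In SWEET14, EXPA8 and CSLC12 the 2 gir groups overlap while Col-7 inflorescence stands above both, and in SP1L4 the gir inflorescence points lie below all root points. For CSLC12 the filter fixed that direction, since it passed through Col-7 inflorescence alone.

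At the other end were genes whose tissue difference was of 8-fold or more and almost the same in both genotypes. On the inflorescence side the 6 nearest to equal were AT1G09310, AT1G20150, AT4G37900, AT5G13380, AT1G54020 and GLC, with gir differences of 3.31 (AT1G20150) to 4.87 (AT1G54020). AT1G54020 was brighter in gir by 0.56 in inflorescence (adjusted p 0.00232) and 0.56 in root (adjusted p 0.0302), beside tissue differences of 4.87 in gir and 4.86 in Col-7. On the root side they were AT4G20230, AT2G15220, UGT72E2, AT5G17820, AT3G54040 and XTH20, and for AT3G54040 gir minus Col-7 was -0.48 in inflorescence (adjusted p 0.00409) and -0.47 in root (adjusted p 0.0475). GI, a clock protein that promotes flowering, spread widely among inflorescence arrays of both genotypes (1111, 815, 640.2 and 486 in gir, 962, 785, 559 and 328 in Col-7) and still had like differences, 2.40 in gir and 2.31 in Col-7. The subtilase SBT1.3 had 4.17 in gir and 4.30 in Col-7.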

How the data were processed

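Total RNA of 14 samples was hybridised to Affymetrix Arabidopsis arrays. The deposited intensity values were made with MAS5, per the submitters' processing notes, and its version is not given in the sources used here. Of 22810 deposited probe sets, 64 control probe sets were left out of the tests. Intensities were taken as log2(value + 26), where 26 lies at the 19.9th percentile of all values, and a probe set was tested where at least 3 arrays of 1 group reached the array's own 40th percentile. Where a probe set reached it in 1 group alone, the filter fixed the direction of its differences. The 4 groups were fitted together with limma 3.58.1 in R 4.3.3, with Benjamini-Hochberg adjustment over 15800 probe sets, an adjusted p threshold of 0.05 and a 2-fold minimum for a tissue difference. Tables were made with Python 3.11.15 and figures with matplotlib 3.10.9. The number of arrays, 3 or 4 a group, limits the precision.

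The platform annotation gave 1 gene for 13513 probe sets and several for 503, and 8730 were unnamed here. A gene was represented by its brightest probe set, and genes without a symbol are given by locus. Genes were named by size: the 12 largest differences each way, the 8 largest lost and gained each way, the reversed genes, the 6 kept differences nearest to equal each way and up to 4 called members of each list. The other genes named, among them smaller or lost members of the lists, were chosen after their values were seen. The comparison, its lists and its tests were chosen with earlier results of these data known. The level of GIR1 was not analysed here.

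Replicate numbers come from the titles. Deviations from the group means of same-numbered gir inflorescence and gir root arrays correlated at 0.023, 0.022 and -0.044. Values this small show no shared deviation and cannot tell whether these arrays are pairs. Same-numbered gir and Col-7 inflorescence arrays correlated at 0.541, 0.143, 0.166 and 0.447 and were taken as pairs in an alternative fit. The same-numbered roots of the genotypes gave 0.06, 0.013 and 0.026 and were taken as pairs in that fit too. Inflorescence arrays of unlike number correlated at -0.465 (gir 4 with Col-7 1) to 0.35 (gir 4 with Col-7 3). Gir 3 with Col-7 4 gave 0.215. Those upper values exceed 0.143 and 0.166, so that the same-numbered arrays are pairs is an assumption. In simulated data the fit recovered 98% of 2-fold tissue differences in gir (a log2 change of 1) and 78% of differences of tissue differences of that size, and called 0.0577% and 0.0321% of unchanged probe sets. There 50 probe sets were changed at each size and 15600 left unchanged, with scatter drawn independently for each probe set. In the real data 77.8% and 20.9% of probe sets passed these tests, which loosens the adjusted threshold. The simulated shares are therefore not error rates of the calls reported here. Alternatives were other scalings, pseudocounts, filters, fold limits and fits, and each array left out in turn.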

Additional observations from a re-analysis of the deposited data

Results flagged for a closer look

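The tissue difference of 91 of the 151 genes examined for the text differed between the genotypes by limma's adjusted p, and the value in parentheses is the tissue difference in gir minus that in Col-7 on the log2 scale. These genes were picked for the text with their values known, so their number says nothing about other genes. Kept inflorescence biases that were smaller in gir were those of AT59 (-3.36), AtVEX1 (-2.94), GH9B11 (-2.87), LCR72 (-2.83), RALFL26 (-2.80), RALFL25 (-2.60), CHX19 (-2.55), TET15 (-2.33) and AGL104 (-2.31). So were those of GH9A4 (-2.29), SBT4.13 (-2.26), MGH3 (-2.12), EXPA24 (-2.09), ACT12 (-1.96), AGL66 (-1.93) and AT5G33370 (-0.46). Kept root biases that were smaller in gir were those of AT4G14090 (0.54), EXPA15 (0.78), EXPA4 (0.93), ATC (1.18) and PDF2.1 (2.11). Larger inflorescence biases in gir were those of LHCB4.1 (0.36), EMS1 (0.44), PSAE-1 (0.45), PSBY (0.59), AT4G29030 (0.91), SWEET10 (1.08), CYP71B22 (1.46) and ECS1 (2.45). Larger root biases in gir were those of ICL (-1.85), XTH19 (-1.43), TUB1 (-1.36), AT2G16005 (-1.02), AGL19 (-0.87), AT5G37990 (-0.69), GSTU25 (-0.68), AT4G30170 (-0.65), RALFL27 (-0.63) and AT5G26260 (-0.47). Inflorescence biases were lost by AT5G47000 (-3.61), AT4G35670 (-3.49), AT1G01310 (-3.39), AT4G25780 (-3.32), AT5G46770 (-3.21), AT3G05150 (-3.13), AT1G13970 (-3.07), ANX2 (-3.05) and EXPA8 (-2.51). Further ones were EXPB5 (-2.38), PUB15 (-2.27), SWEET14 (-2.19), SWEET13 (-2.13), CSLC12 (-2.02), PUB19 (-1.50), AGL30 (-1.41), IQD19 (-1.19), TUA1 (-0.95) and ACT11 (-0.85). Root biases were lost by TET5 (0.69), PUB23 (1.37), LCR68 (1.62), AT5G35735 (1.68), AT1G72230 (1.69), AT2G38600 (1.81), AT5G39670 (1.81), AT1G26450 (2.20), AT4G18340 (2.43) and AT3G19430 (2.51). Inflorescence biases were gained by CML30 (1.06), CML41 (1.22), AT5G08350 (1.71), AT4G26830 (1.76), AT1G62480 (1.89), AT1G10340 (1.91), AT3G62930 (2.05), AT1G35210 (2.48), AT1G22690 (2.56) and AT3G62960 (3.18). Root biases were gained by AT5G05250 (-2.56), AT2G41970 (-2.48), AT5G02580 (-2.45), AT3G56360 (-2.34), UPB1 (-2.31), CYP718 (-1.94), AT4G26770 (-1.81), AT5G65530 (-1.80), ATG8H (-1.51), CML42 (-1.19) and NET2D (-0.96). The bias was reversed in SP1L4 (-3.52) and HIS1-3 (-3.49).

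In 16 of 302 groups of 4 arrays 1 array stood far from the other 3, where chance alone flags about 1 group in 20. AGL21 read 3.72 in gir inflorescence replicate 1, and 0.989 to 1.24 in the other 3. AGL21 read 5.90 in Col-7 inflorescence replicate 1, and 0.685 to 1.55 in the other 3. AT4G20230 read 4.29 in gir inflorescence replicate 2, and 1.31 to 1.69 in the other 3. AT5G08350 read 491 in Col-7 inflorescence replicate 3, and 583 to 600.3 in the other 3. AT5G22430 read 5161 in gir inflorescence replicate 1, and 4691 to 4739 in the other 3. CHX19 read 264 in gir inflorescence replicate 1, and 163 to 176 in the other 3. EXPA7 read 46.2 in gir inflorescence replicate 3, and 2.98 to 6.67 in the other 3. EXPB5 read 77.1 in gir inflorescence replicate 3, and 44.4 to 49.0 in the other 3. GSTU25 read 65.4 in Col-7 inflorescence replicate 2, and 41.2 to 45.3 in the other 3. PSAE-1 read 10590.0 in gir inflorescence replicate 3, and 10250.0 to 10270.0 in the other 3. PUB19 read 75.2 in gir inflorescence replicate 1, and 104 to 107 in the other 3. SWEET8 read 2453 in Col-7 inflorescence replicate 1, and 2804 to 2872 in the other 3. THI2.1 read 7761 in Col-7 inflorescence replicate 3, and 9455 to 9689 in the other 3. TUB1 read 460.4 in gir inflorescence replicate 1, and 259 to 275 in the other 3. TUB1 read 678 in Col-7 inflorescence replicate 1, and 567 to 585 in the other 3. ndhJ read 1049 in Col-7 inflorescence replicate 1, and 1590.0 to 1615 in the other 3.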

How the results depend on the processing

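Tissue, age, medium, glucose and array preparation cannot be told apart, and p-values rest on 3 or 4 arrays a group. The number of reversed probe sets was 6 as reported, 10 after quantile normalization, 17 with a pseudocount of 8 and 3 with 100. Lost differences fell to 282 with the filter at the 60th percentile, where fewer probe sets were tested, and numbered 614 with a pseudocount of 100. At a 4-fold limit 2787 probe sets differed in gir (1526 higher in inflorescence, 1261 in root) and 2920 in Col-7, with 2339 kept, 204 gained and 0 reversed. With no minimum fold the counts were 12291 in gir (6491 and 5800), 12350 in Col-7, 10611 kept and 217 reversed. With 1 array left out at a time, the gir tissue differences numbered 5736 to 5794 (3197 to 3266 higher in inflorescence, 2522 to 2557 in root), those of Col-7 5730 to 5809, the differences between tissue differences 2626 to 3800, kept 4858 to 4932, lost 439 to 549, gained 345 to 475 and reversed 5 to 8. With the replicate number as a block over all arrays, 511 were lost and 435 gained. With the block within each tissue, which assumes that same-numbered arrays are pairs, 4201 differences of tissue differences passed, with 566 lost and 493 gained. Inflorescence replicates 1 and 2 alone gave 2581, 423 and 341. Fitting the genotypes separately gives no difference of tissue differences. Of 7341 values of the 151 genes examined for the text, 7224 kept their side of the threshold, 74 fell short of it, 43 newly passed it and 0 changed sign while called.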
